A study of Solanum phureja with 20 samples.

Results

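IAA2 and IAA3 are potato genes of the Aux/IAA family, whose proteins repress the transcriptional response to auxin. They were taken as the array spots whose only gene symbol in the platform annotation is IAA2 or IAA3, which makes 2 of the 430 genes with such a symbol. Each gene is represented by 1 cDNA clone printed as 2 spots, out of 15360 clones on the array. IAA2 carries gene ID 102586718 and sits on spots 144693 and 145537, and IAA3 carries gene ID 102577631 and sits on spots 148130 and 148974. Both clones had a value on both spots of all 20 arrays.

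The arrays compared a tetraploid line (4x), a pair of diploid lines (2xR3 and 2xR5) and the monoploid line (1x) of one Solanum phureja autopolyploid series, O37. The series was made by doubling the chromosomes of a single monoploid with 12 chromosomes, so all 4 lines share one genotype and none carries a transgene. A ploidy of 1x or 4x is represented by a single line, so ploidy and line cannot be told apart there, while the 2 diploid lines show how far lines of equal ploidy differ. For leaf, expanding leaflets were sampled from 6 plants per line at 20 days. For root, the growing tips were sampled at 7 days and their RNA was amplified. Plants for both tissues had 15 h of light and 9 h of dark, 23.5 °C by day and 15.5 °C by night, and 50% relative humidity. Feeding with 0.5x Hoagland solution is recorded for leaf only. Each array set 1 line in Cy3 against another in Cy5, and the deposited value is the log2 ratio of the channels. There were 8 root tip arrays in 2 replicates and 12 leaf arrays in 3 replicates, and 12403 to 18629 spots per array had a value. The series design text gives a loop design with biological replicates, but no label ties a replicate to particular plants. The spread behind the p-values is that between RNA samples, which may be partly technical. Ratios were taken to be Cy5 over Cy3, the usual convention of the software named in the notes, because the labels do not state it. Under the opposite reading all signs reverse, with sizes and p-values the same.

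Aux/IAA proteins bind auxin response factors at the promoters of auxin-regulated genes and hold those genes down. Auxin brings Aux/IAA proteins together with receptor F-box proteins of the TIR1/AFB type, which leads to their ubiquitination and degradation and so frees the response factors. Transcription of many Aux/IAA genes is itself switched on quickly by auxin, which closes a feedback loop. Growing root tips hold high auxin and use it to place and maintain the meristem, and in potato a lowered IAA2 transcript has been linked to altered shoot form and petiole posture. The numbers in Aux/IAA names are given separately in each species, so potato IAA2 and IAA3 need not correspond to the Arabidopsis genes of the same name.

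In root tips both transcripts were lower in the monoploid line than in the tetraploid and in each diploid line, by 1.37- to 1.76-fold, and no difference among the other 3 lines passed the threshold. In leaf no difference between lines passed the threshold for either gene. The tetraploid to monoploid difference was larger in root tip than in leaf in a test of the tissue difference itself. The diploid to monoploid difference also passed that test, but not with scaled arrays or without some of the replicates. Throughout, a call means a Benjamini-Hochberg adjusted p under 0.05 in limma over all clones of the tissue, which were 8245 in root tip and 6001 in leaf. When the arrays were scaled to a common spread, every root tip call of the tetraploid or the diploid mean against the monoploid was lost, with values given below.

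The root tip arrays that held monoploid RNA stood apart from the rest. Across all clones the median absolute deviation of the log2 ratio was 0.29 to 0.364 on the 4 root tip arrays with 1x and 0.139 to 0.144 on the 4 without it. In leaf it ran from 0.153 to 0.363, with no such split in replicates 1 and 2. In leaf replicate 3 it was 0.271 and 0.208 on the arrays with 1x and 0.154 and 0.153 on those without. In root tip the value of 4x against the diploid mean comes from the arrays without 1x alone, since the dye offset cancels there. The other differences among 4x, 2xR3 and 2xR5 also draw on the arrays with 1x through the solved loop, and every comparison with 1x rests on the same monoploid samples, 1 in each replicate. The samples are bulk tissue, so fewer cells with a transcript and less transcript per cell cannot be told apart, and a log ratio is relative to the other clones on the array.

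On the root tip arrays that paired a diploid line with the monoploid, IAA2 was higher in the diploid on 4 of 4 arrays. The log2 ratio of 2xR3 over 1x for IAA2 was 0.77 in replicate 4 and 0.89 in replicate 5. For 2xR5 over 1x it was 0.85 in replicate 4 and 0.42 in replicate 5, which made 2xR5 of replicate 5 the lowest of the diploid samples. IAA3 was also higher in the diploid on 4 of 4 arrays and varied less between them. Its log2 ratio of 2xR3 over 1x was 0.555 in replicate 4 and 0.54 in replicate 5, and that of 2xR5 over 1x was 0.49 in replicate 4 and 0.40 in replicate 5.

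No root tip array held 4x and 1x together, so 4x was linked to 1x only through the diploids. The IAA2 log2 ratio of 4x over 2xR3 was -0.07 in replicate 4 and -0.06 in replicate 5, and that of 4x over 2xR5 was -0.14 in replicate 4 and 0.30 in replicate 5. For IAA3 the log2 ratio of 4x over 2xR3 was -0.002 in replicate 4 and 0.10 in replicate 5, and that of 4x over 2xR5 was 0.00 in replicate 4 and 0.27 in replicate 5. Both genes thus gave their highest tetraploid ratio on the same array, the one with 2xR5 of replicate 5. The spots of a clone lay close together on these arrays. Their median gap in log2 ratio was 0.0385 for IAA2 (range 0 to 0.058 over 8 arrays) and 0.0835 for IAA3 (range 0.012 to 0.172), against 0.078 over all clones.

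**Figure D1:**
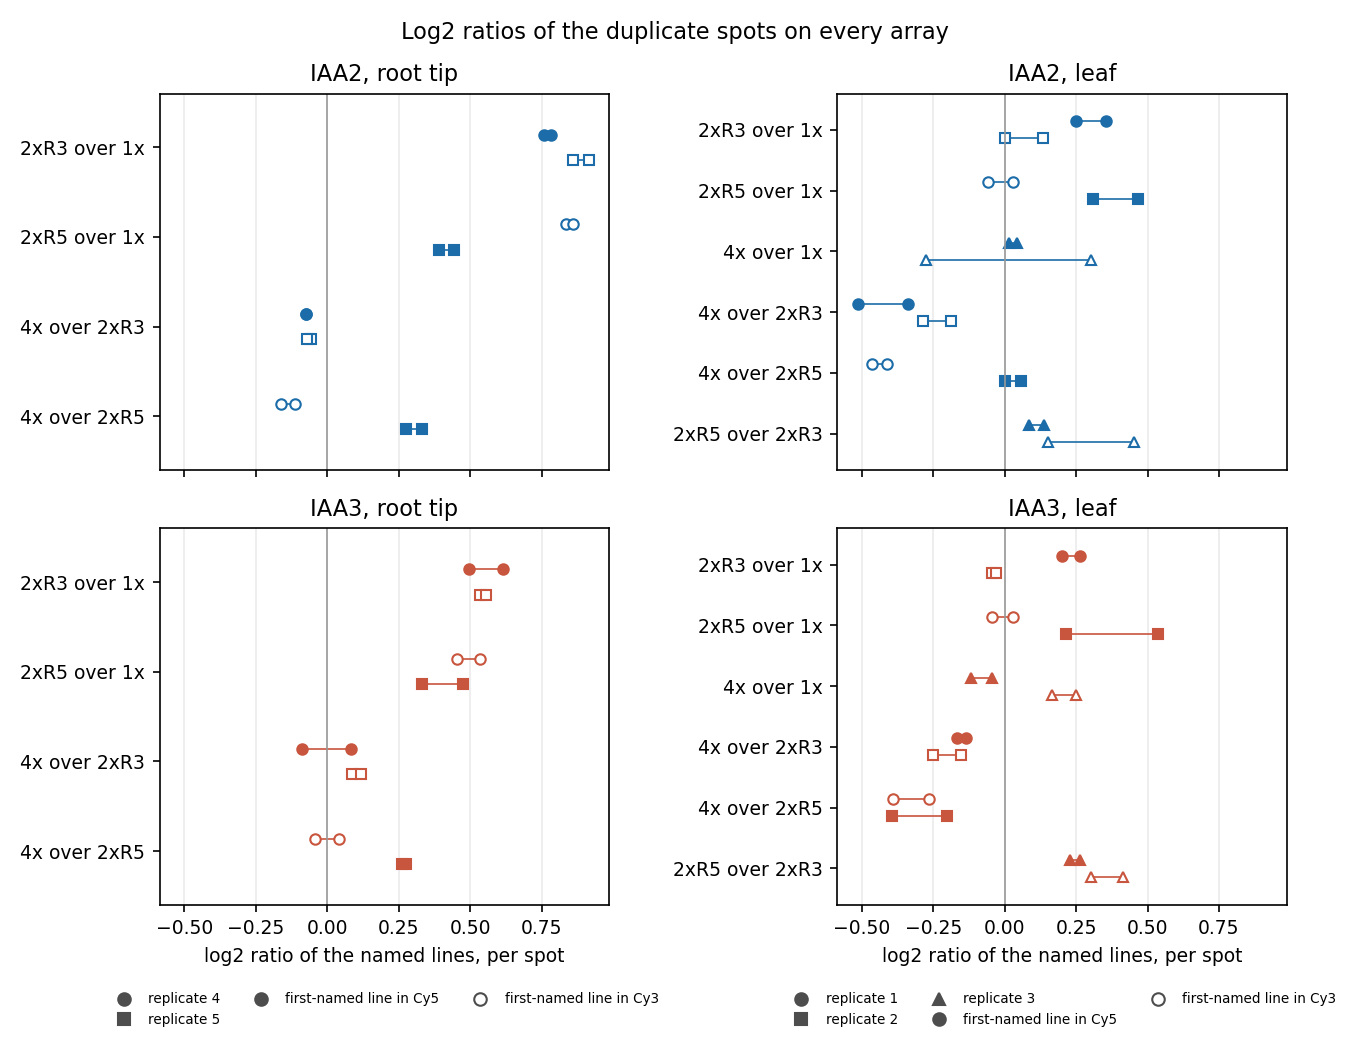
Log2 ratio of the named lines (x axis) on each array, by the pair of lines it compared (y axis), for IAA2 (top) and IAA3 (bottom) in root tip (left) and leaf (right). Joined points are the 2 spots of the clone, marker shape gives the replicate, and filled points have the first-named line in Cy5. In root tip every ratio of a diploid over 1x lies to the right of 0, and in leaf the ratios lie on both sides.

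Each closed loop of 4 arrays was solved for the 4 lines, which gave 1 level per RNA sample relative to the mean of the 4 lines of its replicate. For IAA2 in root tip the log2 levels in replicate 4 were -0.58 in 1x, 0.19 in 2xR3, 0.26 in 2xR5 and 0.12 in 4x. In replicate 5 they were -0.52 in 1x, 0.34 in 2xR3, -0.08 in 2xR5 and 0.25 in 4x. The 2 monoploid samples lay below all 6 other samples, and the ranges of the remaining lines overlapped. IAA3 had log2 levels of -0.39 in 1x, 0.15 in 2xR3, 0.12 in 2xR5 and 0.13 in 4x in replicate 4. In replicate 5 its levels were -0.40 in 1x, 0.15 in 2xR3, -0.0045 in 2xR5 and 0.26 in 4x. Here too the 2 monoploid samples lay below the other 6, and the lowest of those 6 was again 2xR5 of replicate 5.

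In the fit of both replicates the order of IAA2 levels in root tip was 1x (-0.55), 2xR5 (0.09), 4x (0.19) and 2xR3 (0.27), each on the log2 scale with SE 0.079. For IAA3 the order was 1x (-0.40), 2xR5 (0.06), 2xR3 (0.15) and 4x (0.19), each with SE 0.047. In both orders only the step between 2xR5 and 1x passed the threshold. That step was 0.64 for IAA2 (limma, adjusted p = 0.0151) and 0.45 for IAA3 (limma, adjusted p = 0.0101), in a comparison in which 34.5% of all clones were called. The steps 4x minus 2xR5 for IAA2 (0.09, adjusted p = 0.997) and 4x minus 2xR3 for IAA2 (-0.08, adjusted p = 0.937) did not pass in limma, and neither did 4x minus 2xR3 for IAA3 (0.05, adjusted p = 0.941). For IAA3 the remaining step, 2xR5 minus 2xR3, was -0.09 (95% interval -0.28 to 0.10).

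**Figure D2:**
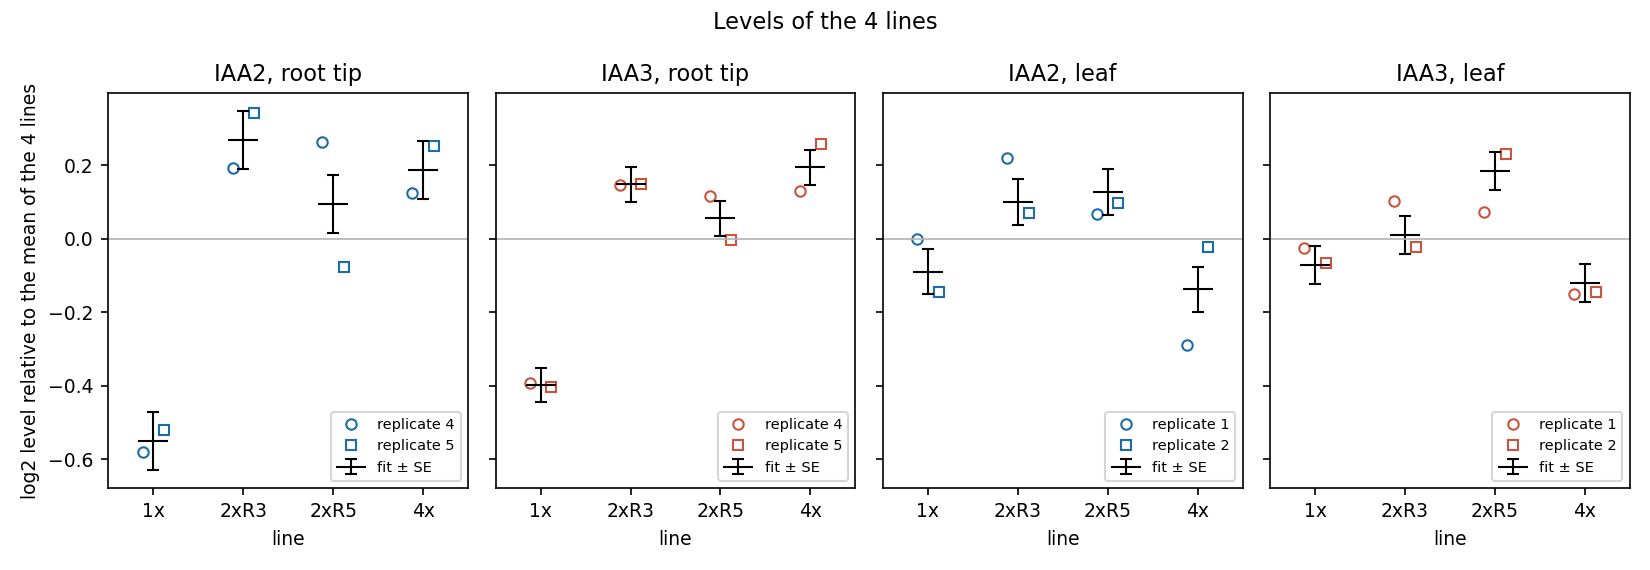
Log2 level relative to the mean of the 4 lines (y axis) in each line (x axis), for IAA2 and IAA3 in root tip (left) and leaf (right). Open symbols are RNA samples of single replicates, and bars are the fitted level ± SE over all replicates (2 in root tip, 3 in leaf; leaf replicate 3 enters the fit but has no mean of 4 lines to plot). The monoploid lies at -0.55 for IAA2 and -0.40 for IAA3 in root tip, while the fitted leaf levels lie between -0.14 and 0.18 and single leaf samples between -0.29 and 0.23.

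IAA2 was 1.67-fold higher in 4x than in 1x root tips, a log2 difference of 0.74 ± 0.13 (SE, n = 2 replicates; 95% interval 0.42 to 1.05; limma, adjusted p = 0.0114). Its single replicates gave 0.70 and 0.77. IAA3 was 1.51-fold higher, a log2 difference of 0.59 ± 0.08 (95% interval 0.40 to 0.78; limma, adjusted p = 0.00568), with 0.52 and 0.66 in single replicates. Both genes were thus called higher, in a comparison in which 30.1% of the 8245 clones were called in either direction and 14.8% were called higher. The IAA2 difference was above that of 95.6% of all clones and the IAA3 difference above that of 93.5%, and the median over all clones was -0.01.

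The diploid lines gave a difference of like size from the monoploid. In root tip the mean of the diploids exceeded 1x by 0.73 ± 0.11 for IAA2, a 1.66-fold difference (log2, SE, n = 2; 95% interval 0.46 to 1.00; limma, adjusted p = 0.00475), and single replicates gave 0.81 and 0.65. IAA3 exceeded it by 0.50 ± 0.07, a 1.41-fold difference (95% interval 0.34 to 0.66; limma, adjusted p = 0.00326), with 0.52 and 0.47 in single replicates. In this comparison 45.3% of all clones were called and 20.9% were called higher, so a call by itself is common here. The signed IAA2 difference was above that of 94.9% of clones and the IAA3 difference above that of 90.2%. By absolute size the shares were 94.1% and 86.4%. Each diploid line passed on its own: 2xR3 stood above 1x by 0.82 for IAA2 and 0.55 for IAA3 (limma, adjusted p = 0.00678 and 0.00526), where 37.7% of all clones were called.

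Against the diploids the tetraploid did not stand apart in root tip. The log2 difference of 4x from the diploid mean was 0.01 ± 0.11 for IAA2 (95% interval -0.26 to 0.28; limma, adjusted p = 0.99) and 0.09 ± 0.07 for IAA3 (95% interval -0.07 to 0.26; limma, adjusted p = 0.867). These intervals leave room for a 4x level up to 0.28 above the diploids for IAA2, and they do not reach the 0.73 and 0.50 that separated the diploids from 1x. The diploid lines also did not differ by the test, with 2xR5 minus 2xR3 at -0.17 for IAA2 (95% interval -0.49 to 0.14; limma, adjusted p = 0.998). Its replicates disagreed, at 0.07 in replicate 4 and -0.42 in replicate 5. Neither comparison called any clone in limma (0% each), although 582 clones in 4x against the diploids and 301 in 2xR5 against 2xR3 had an unadjusted p under 0.05.

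Set against the mean of the end lines, the diploids were higher by 0.36 ± 0.09 for IAA2 (log2, SE, n = 2; limma, adjusted p = 0.0415) and by 0.20 ± 0.05 for IAA3 (limma, adjusted p = 0.0486), where 20.1% of all clones were called. This contrast takes in the low monoploid level, since the 4x level lay beside that of the diploids. It did not hold for IAA2 without replicate 4 (0.27, adjusted p = 0.226), nor for IAA3 without replicate 4 (0.14, adjusted p = 0.467) or without replicate 5 (0.26, adjusted p = 0.103), nor for either gene with scaled arrays (limma; adjusted p over all alternatives 0.00583 to 0.241 for IAA2 and 0.00714 to 0.467 for IAA3).

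**Figure D3:**
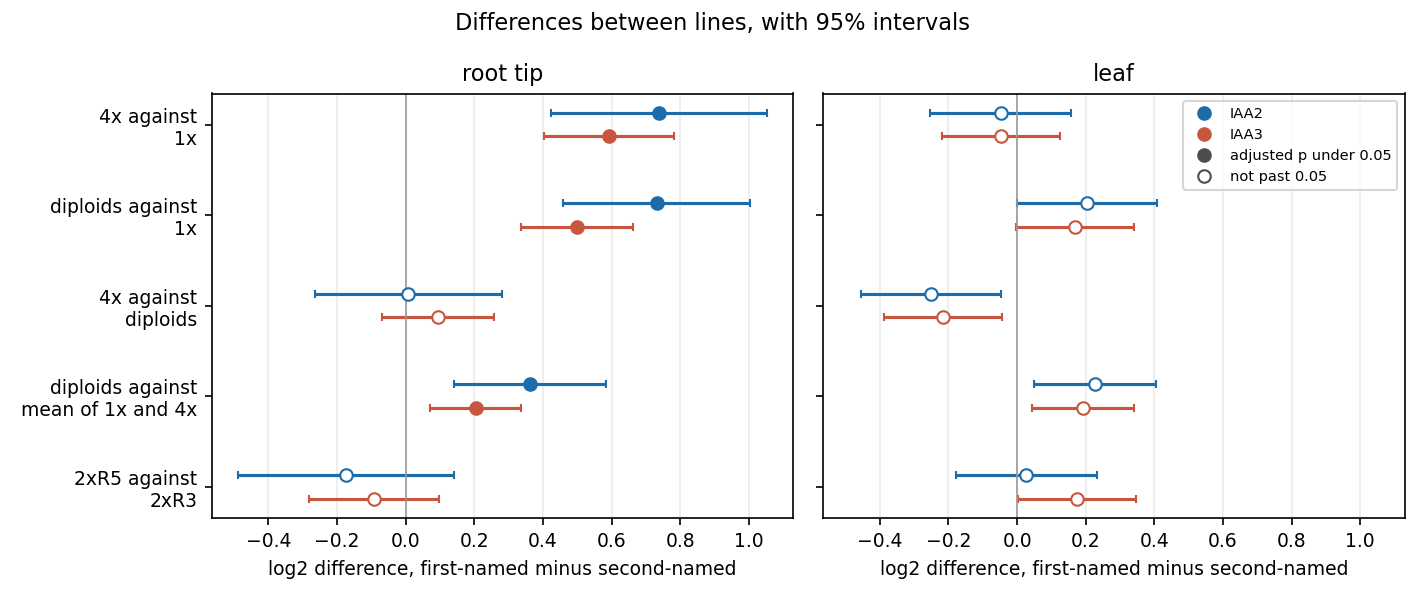
Log2 difference between lines (x axis; first-named minus second-named) with its 95% interval for IAA2 and IAA3 in root tip (left) and leaf (right). Filled points passed an adjusted p of 0.05 and open points did not. In root tip the differences from 1x run from 0.50 to 0.74 and 4x against the diploids lies near 0, while no leaf difference passed.

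The size of the root tip difference depended on how the arrays were scaled. Scaling gave every array the same spread, and the root tip arrays with 1x had a wider spread than those without, so it shrank differences from 1x by construction. Under it the 4x minus 1x difference was 0.48 for IAA2 (limma, adjusted p = 0.136) and 0.47 for IAA3 (adjusted p = 0.075), and the diploid mean minus 1x was 0.47 for IAA2 (adjusted p = 0.0759) and 0.33 for IAA3 (adjusted p = 0.0727). Over all clones the called number in 4x against 1x was 183 with scaling and 2481 without, and the share of calls that were higher was 62.3% with scaling and 49.3% without. In the diploids against 1x, 708 clones were called with scaling and 3735 without, with 63.8% and 46.1% of them higher. In the other 9 alternatives tried the IAA2 and IAA3 calls of 4x and of the diploids against 1x held. These took in each spot alone and each root tip replicate alone, for which the spread came from the leaf samples and 5121 clones were tested. Over all 10 alternatives the adjusted p of 4x against 1x ran from 0.000652 to 0.136 for IAA2 and from 0.000295 to 0.075 for IAA3 (limma).

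**Figure D4:**
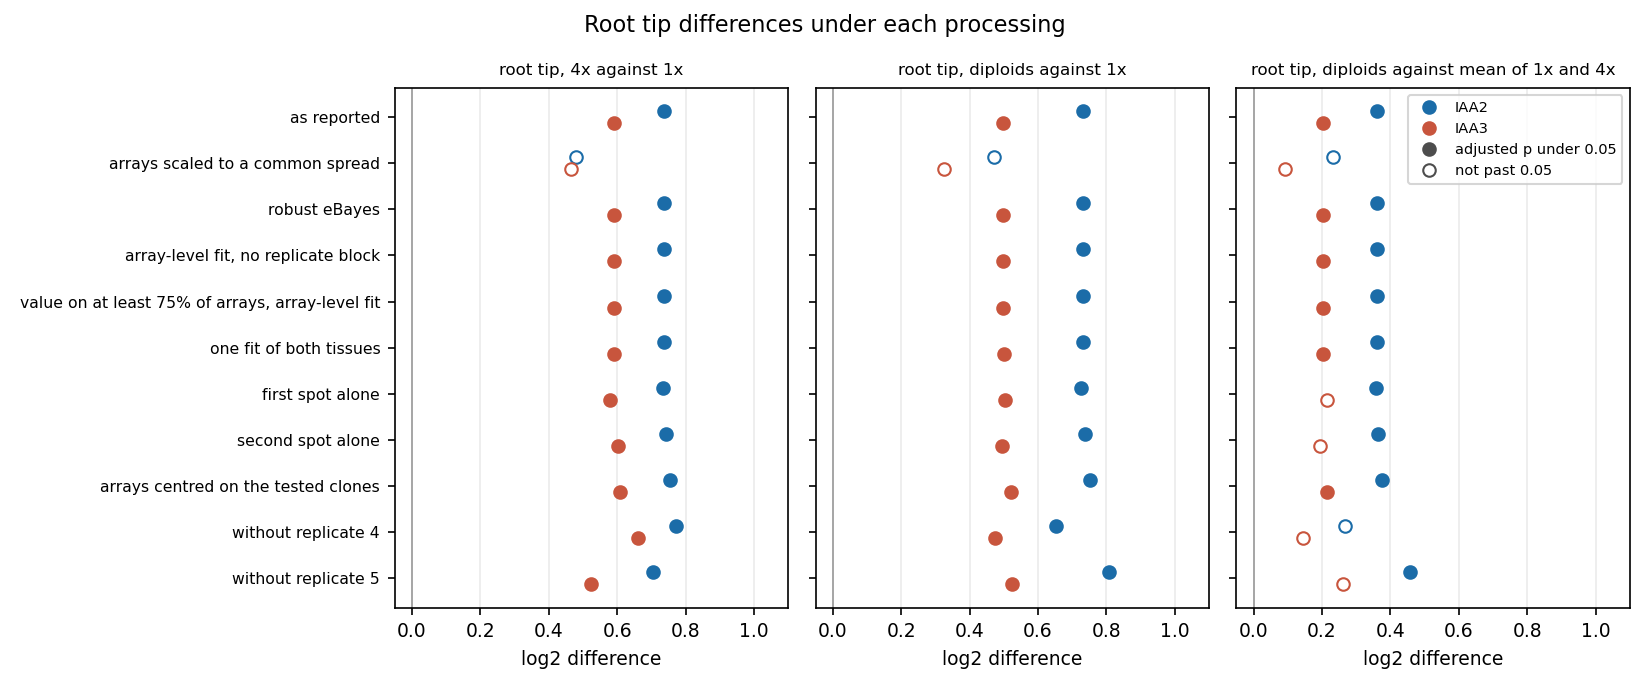
Log2 differences in root tip (x axis) for IAA2 and IAA3 under each processing (y axis), for 4x against 1x (left), the diploids against 1x (middle) and the diploids against the mean of 1x and 4x (right). Filled points passed an adjusted p of 0.05. Every point lies above 0, and with arrays scaled to a common spread none passed.

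In leaf the arrays gave ratios of both signs. For IAA2 the log2 ratio of 2xR3 over 1x was 0.30 in replicate 1 and 0.07 in replicate 2, and that of 2xR5 over 1x was -0.01 in replicate 1 and 0.39 in replicate 2. The ratio of 4x over 2xR3 was -0.43 and -0.24 in those replicates, and the ratio of 4x over 2xR5 was -0.44 and 0.03. The dye-swapped arrays of replicate 3 gave 0.03 and 0.01 for 4x over 1x and 0.11 and 0.30 for 2xR5 over 2xR3. One of the first pair held the widest spot gap of IAA2, since its spots read -0.303 and 0.275 as Cy5 over Cy3, so that its mean near 0 averages spots of opposite sign. Over the 12 leaf arrays the median spot gap was 0.102 for IAA2 and 0.08 for IAA3, against 0.124 over all clones.

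IAA3 in leaf followed much the same arrays. Its log2 ratio of 2xR3 over 1x was 0.23 in replicate 1 and -0.04 in replicate 2, and that of 2xR5 over 1x was -0.01 in replicate 1 and 0.375 in replicate 2. The ratio of 4x over 2xR3 was -0.15 and -0.20, and that of 4x over 2xR5 was -0.33 and -0.30, so the tetraploid was the lower line on all 4 arrays. In replicate 3 the dye-swapped arrays gave -0.08 and 0.21 for 4x over 1x, which differ in sign, and 0.245 and 0.36 for 2xR5 over 2xR3.

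As levels relative to the mean of the 4 lines, IAA2 in leaf stood in replicate 1 at -0.0003 in 1x, 0.22 in 2xR3, 0.07 in 2xR5 and -0.29 in 4x. In replicate 2 it stood at -0.14 in 1x, 0.07 in 2xR3, 0.10 in 2xR5 and -0.02 in 4x. The lowest line was thus 4x in one replicate and 1x in the other. For IAA3 the replicate 1 levels were -0.02 in 1x, 0.10 in 2xR3, 0.07 in 2xR5 and -0.15 in 4x. Those of replicate 2 were -0.06 in 1x, -0.02 in 2xR3, 0.23 in 2xR5 and -0.14 in 4x, so 4x was lowest in both. The fitted order of IAA2 was 4x (-0.14), 1x (-0.09), 2xR3 (0.10) and 2xR5 (0.13) with SE 0.062, and that of IAA3 was 4x (-0.12), 1x (-0.07), 2xR3 (0.01) and 2xR5 (0.18) with SE 0.052. No step between neighbours in either order passed the threshold.

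In leaf the tetraploid minus monoploid log2 difference was -0.05 ± 0.09 for IAA2 (SE, n = 3; 95% interval -0.25 to 0.16; limma, adjusted p = 0.703) and -0.05 ± 0.08 for IAA3 (95% interval -0.22 to 0.12; limma, adjusted p = 0.65). Neither gene was called, in a comparison in which 39.8% of the 6001 leaf clones were. Single replicates gave -0.29, 0.12 and 0.02 for IAA2 and -0.13, -0.08 and 0.06 for IAA3. The intervals exclude the root tip values of 0.74 and 0.59.

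The diploids lay above 1x and 4x in leaf without passing. The diploid mean exceeded 1x by 0.20 ± 0.09 for IAA2 (95% interval -0.0013 to 0.41; limma, adjusted p = 0.159) and by 0.17 ± 0.08 for IAA3 (limma, adjusted p = 0.164), where 16.6% of clones were called. The tetraploid minus the diploid mean was -0.25 ± 0.09 for IAA2 (95% interval -0.46 to -0.05; limma, adjusted p = 0.14) and -0.22 ± 0.08 for IAA3 (95% interval -0.39 to -0.04; limma, adjusted p = 0.133), where 3.3% were called. For each gene both loops gave a negative difference of 4x from the diploids, -0.43 and -0.10 for IAA2 and -0.24 and -0.25 for IAA3. The diploids minus the mean of 1x and 4x came to 0.23 for IAA2 (adjusted p = 0.188) and 0.19 for IAA3 (adjusted p = 0.183), where 2.17% of clones were called in limma.

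Among the 6 pairs of lines in leaf, the smallest adjusted p of either gene was that of IAA3 in 2xR5 minus 1x, a log2 difference of 0.26 (limma, adjusted p = 0.0605), where 19.6% of clones were called. The largest difference was that of IAA3 in 4x minus 2xR5, at -0.30 (95% interval -0.50 to -0.11). It had the smaller unadjusted p (0.00514 against 0.0135) and did not pass either (limma, adjusted p = 0.109). Between the diploid lines, 2xR5 minus 2xR3 was 0.17 for IAA3 (95% interval 0.003 to 0.35; limma, adjusted p = 0.573), with -0.03, 0.25 and 0.30 in single replicates. The same difference for IAA2 was 0.03 (limma, adjusted p = 0.943), and 0% of clones were called, with 518 at an unadjusted p under 0.05. An F test for any difference between lines gave an adjusted p of 0.174 for IAA2 and 0.0757 for IAA3 in leaf, where it called 29.6% of clones, and of 0.0201 for IAA2 and 0.0127 for IAA3 in root tip, where it called 25.2% (limma).

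A joint limma fit of both tissues over 5121 clones tested whether a difference between lines was itself different in root tip and leaf. For 4x against 1x the root tip difference exceeded the leaf difference by 0.79 ± 0.16 for IAA2 (log2, SE; 95% interval 0.44 to 1.13; adjusted p = 0.00315) and by 0.64 ± 0.12 for IAA3 (95% interval 0.39 to 0.89; adjusted p = 0.00148). Both were called, where 31.5% of clones were. For the diploids against 1x the excess in root tip was 0.53 ± 0.15 for IAA2 (adjusted p = 0.0218) and 0.33 ± 0.11 for IAA3 (adjusted p = 0.0375), where 23.8% of clones were called. These diploid calls were less stable than those of 4x: with scaled arrays they were lost, at 0.29 for IAA2 (adjusted p = 0.297) and 0.17 for IAA3 (adjusted p = 0.46). They were also lost without replicate 1, 2 or 4 for IAA2 and without replicate 1, 2, 4 or 5 for IAA3 (limma; adjusted p over all 7 alternatives 0.0203 to 0.297 for IAA2 and 0.0302 to 0.46 for IAA3), while the 4x calls held in all 7 (0.00283 to 0.0482 and 0.00137 to 0.034). The tissue difference for 4x against the diploids, at 0.26 for IAA2 (adjusted p = 0.455) and 0.31 for IAA3 (adjusted p = 0.213), did not pass in limma, where 1.45% did. Tissue here goes together with plant age, amplification of the RNA and the recorded feeding, which cannot be told apart from it. Levels in root tip and leaf were not compared because no array held both.

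IAA2 and IAA3 moved in parallel. Over the 20 RNA sample values, 8 from root tip and 12 from leaf, Pearson's r between them was 0.92, with 0.971 in root tip and 0.761 in leaf. Over both tissues each was the other's closest partner among 456 clones with 1 symbol that were measured on all arrays. Of all clones, named or not, 99.82% had a lower r with IAA2 than IAA3 had, and 99.86% a lower r with IAA3 than IAA2 had. Within a tissue the pair was not always closest. In root tip LOC102579649 followed IAA2 more closely (0.98). In leaf LOC102577927 was closer to IAA2 (0.83) and to IAA3 (0.859), and so was LOC102577779 (0.804 and 0.824). LOC102588383 was also closer to IAA3 in leaf (0.848). Only clones picked for their r over both tissues were looked at, so the rank of the pair within a tissue was not found. The RNA sample values share arrays, hybridisations and the low monoploid samples, so the correlation is a description of these samples. The difference from 1x was larger in IAA2 than in IAA3 in both root tip replicates. The excess of IAA2 over IAA3 was 0.18 and 0.11 for 4x against 1x and 0.28 and 0.18 for the diploids against 1x, and it was not tested. A log ratio gives no level of one clone against another, so which of the 2 transcripts was more abundant was not measured.

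Among the clones with 1 symbol, those that followed IAA2 most closely after IAA3 over both tissues were LOC102577927 (r = 0.89), LOC102594671 (0.879), LOC102588383 (0.878), LOC102577779 (0.874) and LOC102579649 (0.871). For IAA3 they were LOC102588383 (0.891), LOC102577927 (0.863), PEST2 (0.86), LOC102577779 (0.855) and LOC102598069 (0.852), so that 3 of the 5 were shared. PEST2 encodes a pectin methylesterase of the cell wall. These clones were picked by correlation over the same samples, so their low monoploid values in root tip follow from the choice and are no separate result. The correlation does not fix the size of a difference, and some differed far more than the Aux/IAA genes. LOC102577927 was higher in 4x than in 1x root tips by 3.69 and LOC102577779 by 2.35 (log2; limma, adjusted p = 0.00179 and 0.00799), against 0.74 for IAA2. In that comparison 30.1% of all clones were called.

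**Figure D5:**
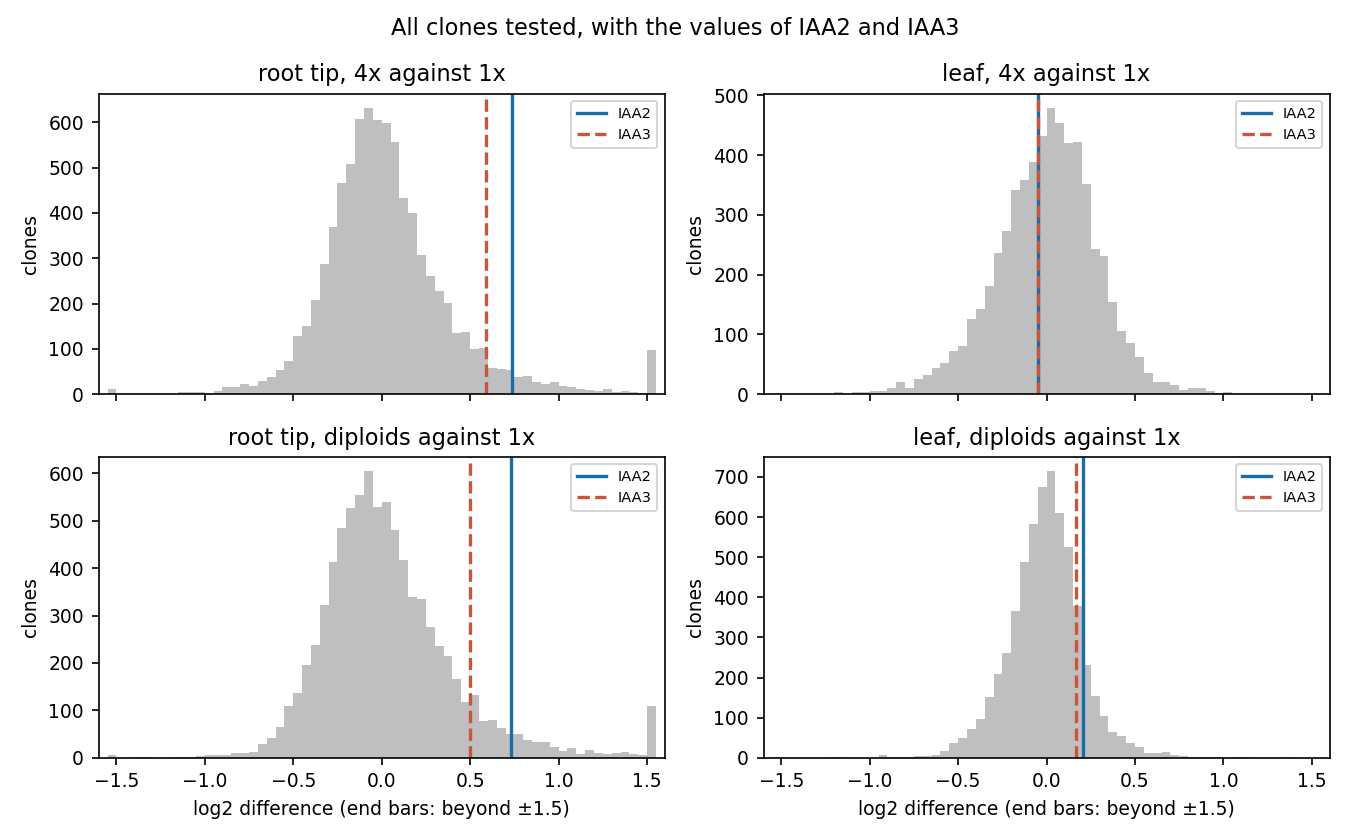
Number of clones (y axis) by log2 difference (x axis; end bars hold values beyond ±1.5) for 4x against 1x (top) and the diploids against 1x (bottom) in root tip (left, 8245 clones) and leaf (right, 6001 clones). Vertical lines mark IAA2 and IAA3. In root tip both lie in the upper tail, above 90.2% to 95.6% of clones, and in leaf 4x against 1x both lie near the middle.

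No other auxin gene could be set beside them, because the annotation gives symbols without descriptions and 2 of 2 clones of the auxin list were IAA2 and IAA3 themselves. D-type cyclins, which drive cells into division, were the markers of dividing cells, with 2 clones tested in root tip. In the diploids against 1x both were higher, CYCD3.2 by 0.30 (adjusted p = 0.047) and CYCD3.3 by 0.38 (limma, adjusted p = 0.0128), beside 0.73 for IAA2 and 0.50 for IAA3. Such calls were common, since 45.3% of all clones were called there and 20.9% were called higher. In 4x against 1x root tips neither passed, with CYCD3.2 at 0.26 (adjusted p = 0.127) and CYCD3.3 at 0.11 (limma, adjusted p = 0.416). Between the diploid lines in root tip, 2xR5 minus 2xR3 was 0.42 for CYCD3.3 (limma, adjusted p = 0.998), opposite in sign to IAA2 at -0.17. In leaf only CYCD3.3 was tested, and it was lower in 4x and in the diploids than in 1x, at log2 differences of -0.51 and -0.92 (limma, adjusted p = 0.00245 and 0.0005), where IAA2 and IAA3 did not pass. In these comparisons 39.8% and 16.6% of clones were called. In leaf 4x against the diploids CYCD3.3 was higher by 0.41 (limma, adjusted p = 0.0371), where 3.3% of clones were called and IAA2 and IAA3 stood at -0.25 and -0.22. Without leaf replicate 1 or 2 the clones called fell to 0 and 1 there, and to 22 and 11 in the diploids against 1x. The part that the share of dividing cells has in the Aux/IAA values was not tested.

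The oxygen shortage genes split in root tip. ADH1, alcohol dehydrogenase of fermentation, was lower in 4x than in 1x, at a log2 difference of -4.70 (limma, adjusted p = 0.000602), and lower in the diploids than in 1x, at -2.27 (limma, adjusted p = 0.00161), and LDH-2, lactate dehydrogenase, stood at -0.09 and -0.07 without passing. The monoploid root tips that were low in IAA2 and IAA3 were thus high in ADH1, and whether the ADH1 difference bears on the Aux/IAA values was not tested. In root tip 4x minus the diploids was -2.43 in ADH1 (limma, adjusted p = 0.113), while IAA2 and IAA3 lay at 0.01 and 0.09 in that comparison. In leaf ADH1 went the other way, higher in 4x than in 1x by 0.34 (limma, adjusted p = 0.0318), where 39.8% of clones were called. The leaf diploids minus 1x stood at 0.18 in ADH1 (limma, adjusted p = 0.301), and LDH-2 was not tested in leaf.

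PSBR, a photosystem II subunit used as the green tissue marker, had 2 of its 6 clones tested in each tissue, and only 1 clone was the same in both. In root tip those tested there stood at 0.07 and -0.09 in 4x against 1x and at 0.03 and -0.22 in the diploids against 1x, and neither passed. In leaf 1 of the 2 passed in 4x against the diploids, at -0.38 (limma, adjusted p = 0.0424), beside -0.36 for the other (adjusted p = 0.0648), -0.25 for IAA2 and -0.22 for IAA3. The clone that passed was not tested in root tip. In that leaf comparison 3.3% of all clones were called, and 0 were called without leaf replicate 1. ERS, an ethylene receptor and the only other hormone gene tested, was higher in 4x than in 1x leaves by 0.68 (limma, adjusted p = 0.00018) and stood at -0.08 in root tips (adjusted p = 0.477). Beside these, IAA2 and IAA3 stood at -0.05 each in leaf and at 0.74 and 0.59 in root tip.

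The dye offset solved within each root tip loop, the mean excess of Cy5 over Cy3 left after the lines, was -0.0037 and -0.0259 for IAA2 and 0.0149 and 0.0063 for IAA3. In leaf the offsets of the 2 loops and of the 2 dye-swapped pairs were wider, at 0.08, 0.15, 0.0073 and -0.10 for IAA2 and 0.10, 0.08, -0.145 and -0.06 for IAA3. Every line carried each dye once in a loop, so an offset common to the arrays of a loop cancels from the levels.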

How the data were processed

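Values were the log2 ratios that the authors deposited for each of 32448 spots on 20 arrays; limma is named in the submitters' processing notes, and its version and settings are not given in the sources used here. Medians of the arrays lay between -0.013 and 0.014, and all values (100%, within 0.0015) were the log2 of a ratio with 2 decimals. No spot intensities were used here, so dim spots, background and slides were not examined, and the number of arrays limits the precision. Duplicate spots were paired from the print layout (15360 pairs; all 905 accessions with 2 spots fell on a pair; spot correlation per array 0.517 to 0.952) and averaged.

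Each loop was solved by least squares for the 4 lines and a dye offset; the dye-swapped pairs of leaf replicate 3 were averaged. These sample values entered limma (version 3.58.1, R 4.3.3; lmFit and eBayes) with line and a replicate block, which the design imposes since ratios exist only within a replicate. Clones with a value on every array of the tissue were tested, with Benjamini-Hochberg adjustment over all of them. Leaf replicate 3 also informs the leaf diploid contrasts, through its pair of 4x and 1x. The steps were run on simulated arrays with known line differences, and the check was on the median size recovered. The simulated noise was the same for every line, so the wider spread of root tip arrays with 1x was not covered. Alternatives were scaling, centring, robust eBayes, single spots, an array-level fit without the block, a filter at 75% of arrays, one fit of both tissues, and leaving out each replicate.

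IAA2 and IAA3 were named in every comparison, list members where tested, and by likeness the 5 clones with 1 symbol of highest Pearson correlation. The members and lists were chosen with earlier results of these data known. Gene symbols are those of the array platform and can be out of date.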

Additional observations from a re-analysis of the deposited data

Results flagged for a closer look

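The effect of line on both genes differed between the tissues in the joint limma fit. In 4x against 1x the root tip difference exceeded the leaf difference by 0.79 for IAA2 (0.74 in root tip, -0.05 in leaf; adjusted p = 0.00315) and by 0.64 for IAA3 (0.59 in root tip, -0.05 in leaf; adjusted p = 0.00148). In the diploids against 1x it exceeded it by 0.53 for IAA2 (0.73 in root tip, 0.20 in leaf; adjusted p = 0.0218) and by 0.33 for IAA3 (0.50 in root tip, 0.17 in leaf; adjusted p = 0.0375). The diploid calls were lost with scaled arrays (adjusted p = 0.297 for IAA2 and 0.46 for IAA3), without replicate 1, 2 or 4 for IAA2, and without replicate 1, 2, 4 or 5 for IAA3. The 4x calls held with scaled arrays, narrowly for IAA2 (limma, adjusted p = 0.0482 for IAA2 and 0.0271 for IAA3). Such calls were common, at 31.5% of the 5121 clones in 4x against 1x and 23.8% in the diploids against 1x. Over the 5121 clones the median of this tissue difference was -0.03 in 4x against 1x and -0.02 in the diploids against 1x. Single root tip replicates lay between 0.47 and 0.81 in these comparisons, and single leaf replicates between -0.29 and 0.23.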

How the results depend on the processing

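For IAA2 and IAA3, 172 values were recomputed under alternatives other than leaving out a replicate. Of these, 161 kept their direction and side of the threshold, 10 lost a call, 1 gained one and 0 reversed. Many could not reverse, because some alternatives change the p-value and leave the log2 difference as it was. These were robust eBayes, the one fit of both tissues and, in root tip, the array-level fits. Scaling the arrays to a common spread accounted for 8 of the 10 lost calls (limma): root tip 4x minus 1x at 0.48 for IAA2 and 0.47 for IAA3, diploids minus 1x at 0.47 and 0.33, diploids minus the mean of 1x and 4x at 0.23 and 0.0924, and root tip minus leaf in the diploids against 1x at 0.29 and 0.17. Root tip minus leaf in 4x against 1x held under scaling, at 0.52 for IAA2 (adjusted p = 0.0482) and 0.50 for IAA3 (adjusted p = 0.0271). IAA3 in the root tip diploids against the mean of 1x and 4x also lost its call with either spot alone (0.21 and 0.19). The array-level fit without the replicate block called IAA2 in the leaf diploids against the mean of 1x and 4x (0.23, adjusted p = 0.0453) and changed no other call of the 2 genes.

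Leaving out 1 replicate, root tip 4x minus 1x ran from 0.704 to 0.773 for IAA2 and from 0.523 to 0.661 for IAA3, and diploids minus 1x from 0.653 to 0.809 and from 0.474 to 0.524, with every call held. Diploids minus the mean of 1x and 4x ran from 0.266 to 0.457 for IAA2, lost without replicate 4, and from 0.144 to 0.263 for IAA3, lost without either. Root tip minus leaf in the diploids against 1x ran from 0.449 to 0.606 for IAA2, lost without replicate 1, 2 or 4, and from 0.294 to 0.358 for IAA3, lost without replicate 1, 2, 4 or 5; in 4x against 1x it ran from 0.666 to 0.872 and from 0.571 to 0.708. Values with no call that changed sign were leaf 4x minus 1x of IAA2 (-0.133 to 0.072), leaf 2xR5 minus 2xR3 of IAA2 (-0.0632 to 0.117), root tip 4x minus diploids of IAA2 (-0.105 to 0.12) and IAA3 (-0.001 to 0.186), and root tip 2xR5 minus 2xR3 of IAA2 (-0.419 to 0.0715). The cause was not tested. A root tip replicate alone has no spread of its own, so those fits took it from leaf.

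Over all clones, the number called (limma) under alternatives that kept every replicate was, in root tip, 2481 in 4x against 1x (183 scaled), 3735 in the diploids against 1x (708 scaled, 2408 in one fit of both tissues), 1655 in the diploids against the mean of 1x and 4x (155 scaled, 3655 and 3692 in array-level fits), 0 in 4x against the diploids (up to 17) and 0 in 2xR5 against 2xR3 (up to 11). In leaf it was 994 in the diploids against 1x (607 and 638 with single spots), 198 in 4x against the diploids (106 to 494) and 130 in the diploids against the mean of 1x and 4x (47 to 518). The array-level fits raised the diploids against 1x to 1426 and 1486 in leaf and to 4616 and 4771 in root tip. Without root tip replicate 4 or 5 the root tip counts, now over 5121 clones in place of 8245, were 716 and 646 in 4x against 1x, 970 and 1424 in the diploids against 1x, 325 and 524 in the diploids against the mean of 1x and 4x, 50 and 15 in 4x against the diploids, and 2 and 1 in 2xR5 against 2xR3. Without leaf replicate 1, 2 or 3 the leaf counts were 1239, 194 and 2159 in 4x against 1x (2386 with all), 22, 11 and 988 in the diploids against 1x, 0, 1 and 520 in 4x against the diploids, 1, 1 and 163 in the diploids against the mean of 1x and 4x, and 0, 0 and 4 in 2xR5 against 2xR3. The higher share of calls in the diploids against the mean of 1x and 4x was 81.9% scaled and 51.8% unscaled in root tip, and 76.6% and 57.7% in leaf.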
